A study of Sus scrofa with 11 samples.

Results

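The effect of extracellular vesicles (EV) that was shared by animals on a normal diet (ND) and on a high fat diet (HFD) was described across genes in the ischemic left ventricle of pigs. It was taken as the mean of 2 differences, ND+EV minus ND and HFD+EV minus HFD, so each diet had equal weight. All 11 arrays of the series entered, 6 from EV-injected and 5 from vehicle-injected hearts. The animals were intact male Yorkshire swine fed ND or HFD for 12 weeks. All 4 groups shared an ameroid constrictor on the left circumflex coronary artery, a device that narrows the vessel gradually as it takes up water. ND (3 arrays) and HFD (2 arrays) received vehicle in the ischemic heart muscle, and ND+EV (3) and HFD+EV (3) received EV there. Heart tissue was taken 5 weeks after the injection. The labels give neither the cells that released the EV nor the dose. The titles call the arrays of a group biological replicates and name no animal, so the p-values measure the spread between these arrays, which may be technical.

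EV are membrane-bound particles that cells release and that carry RNA, protein and lipid to other cells. In ischemic heart muscle they have been studied as a means to promote vessel growth and cell survival. Vessel growth is driven largely by secreted ligands of the VEGF and FGF families, which bind tyrosine kinase receptors on endothelial cells. The series asks how a high fat diet bears on this response, and the mean over both diets gives the average difference between EV and vehicle. Such a mean can come largely from a single diet. A shared effect below thus does not by itself show that a gene differed under both diets. A gene is described below as apart under both diets when every EV array lay above, or every EV array lay below, every vehicle array of its own diet, the same way in both.

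Values are log2 signal per probe set, and a difference of 1 is a fold of 2. Cardiomyocyte markers were high on the scale, with MYL2, the ventricular myosin light chain, at group means of 12.82 to 13.19 and MYH7, the slow myosin heavy chain, at 12.25 to 12.66. The shared EV effect on these genes was 0.02 ± 0.125 and -0.03 ± 0.0995 (limma standard error, SE, as in every such value). ND replicates 1 and 3 stood apart, with mean correlations to the other arrays of 0.925 and 0.937 (0.951 to 0.962 on the rest). As the tissue was measured in bulk, fewer cells of a type and less RNA per cell cannot be told apart in any value below.

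No probe set of 20668 passed an adjusted p of 0.05 for the shared EV effect (0%; limma, Benjamini-Hochberg adjustment, smallest adjusted p = 0.646). At an unadjusted p under 0.05, 1120 probe sets differed (5.42%), 551 of them higher and 569 lower with EV. The counts past adjustment were also 0 (0%) within ND, within HFD and for the difference between the diets, against 1758, 1146 and 1740 at an unadjusted p under 0.05 (8.51%, 5.54% and 8.42%). The median 95% interval reached 0.27 log2 units to either side, a fold of 1.21, so most shared differences below that fold were not detectable with these arrays. Differences well above that fold also failed adjustment, since the interval does not account for the number of probe sets tested. Large differences were rare, with 1354 probe sets at a shared log2 difference of 0.32 or more, the minimum used for naming genes, and 13 at a fold of 2 or more.

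The diets more often opposed each other than matched. EV and vehicle arrays were apart under both diets in the same direction at 205 probe sets (0.992%), 99 with EV higher (0.479%) and 106 with EV lower (0.513%). In opposite directions they were apart at 346 (1.67%). Arrays in random order within each diet would be apart the same way at a share close to 0.992%. The count of 205 alone thus does not mark genes that differ with EV. Within ND alone, EV arrays were apart above vehicle at 1307 probe sets (6.32%) and below it at 1098 (5.31%), and within HFD, which has 2 vehicle arrays, at 2517 (12.2%) and 2282 (11%). The group means had the same sign in both diets at 45% of all probe sets. At a log2 difference of 0.32 or more under each diet the share was 30.2% of 1130, with 180 higher and 161 lower under both and 789 opposite. These shares rested on single arrays, since without ND replicate 1 the share over all probe sets was 49.8%, without HFD+EV replicate 1 it was 50.4%, and without any other array it lay between 42.6% and 46.3%.

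**Figure D1:**
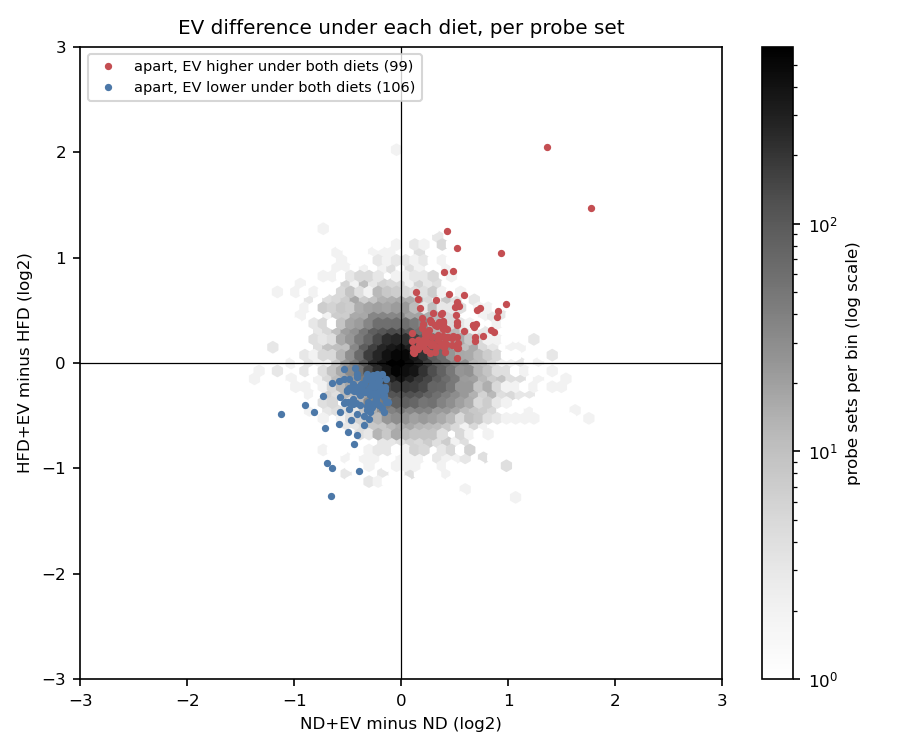
Difference between EV and vehicle group means (log2) under the normal diet (x axis) and the high fat diet (y axis), with grey bins shaded by the number of probe sets and points for probe sets apart under both diets. The 99 red and 106 blue points lie toward the upper right and the lower left, and the grey cloud extends to the upper left and lower right, where the diets differ in sign.

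Over 9738 genes, each read from the tested probe set of highest mean signal, 101 were apart under both diets (1.04%), 48 higher (0.493%) and 53 lower (0.544%). This share too is close to that of arrays in random order. Of the 101 genes, 28 higher and 22 lower had a shared log2 difference of at least 0.32. The 12 of each direction with the smallest p are described next. They were picked by their own values and by their separation, so the values are a description, and 0 of these 24 passed the adjusted threshold (adjusted p from 0.646 to 0.855). The 95% interval of the difference between the diets included 0 for 23 of 24, which does not show that the effects were equal. The exception was ISG12(A). For 5 of the 24 the gap between EV and vehicle arrays was under 0.02 in at least 1 diet. After cyclic loess or quantile normalization of the deposited values, 20 of the 24 were still apart, and UQCR10, LEPROT, FKBP5 and ENPEP overlapped.

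Of the 12 genes higher with EV, the largest shared effect was that of UQCR10, a small subunit of respiratory complex III (probe set 15225218). UQCR10 had a log2 signal of 7.329, 9.102 and 7.266 in ND, 9.227, 9.103 and 9.451 in ND+EV, 7.245 and 7.55 in HFD, and 8.763, 10.13 and 9.456 in HFD+EV. All EV arrays but 1 were above 9, and all vehicle arrays but ND replicate 2 were at or below 7.55. ND replicate 2 was level with the EV arrays, and the groups were apart under ND by 1e-04. For UQCR10 the shared effect was 1.71 ± 0.344 (95% interval 0.95 to 2.47, a fold of 3.26, limma adjusted p = 0.700). Without ND replicate 2 it was 2.01 (adjusted p = 0.124), the lowest adjusted p that any of the 24 genes reached under the alternatives tried.

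ISG12(A), an interferon-inducible protein (probe set 15313377), had the smallest p of the 24 genes. ISG12(A) had a log2 signal of 5.26, 5.63 and 5.23 in ND, 5.69, 6.01 and 5.69 in ND+EV, 5.49 and 4.82 in HFD, and 6.30, 6.65 and 6.28 in HFD+EV. The ND+EV arrays were just above those of ND, while the HFD+EV arrays exceeded HFD by a wide gap. For ISG12(A) the shared effect was 0.84 ± 0.148 (95% interval 0.51 to 1.17, a fold of 1.79, limma adjusted p = 0.646). Its EV difference was 0.43 under ND and 1.255 under HFD, and these differed by 0.83 (95% interval 0.17 to 1.49, adjusted p = 0.572). PHF11, a PHD finger protein, was more alike in the diets. PHF11 had a log2 signal of 6.73, 6.80 and 6.38 in ND, 7.01, 7.27 and 6.99 in ND+EV, 7.24 and 7.08 in HFD, and 7.90, 7.83 and 7.73 in HFD+EV. Each EV array was clear of the vehicle arrays of its diet, and HFD vehicle arrays were level with ND+EV. For PHF11 the shared effect was 0.56 ± 0.105 (95% interval 0.32 to 0.79, a fold of 1.47, limma adjusted p = 0.646). The diets differed by 0.21 (95% interval -0.26 to 0.67).

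STC1, which encodes stanniocalcin, a secreted glycoprotein hormone that is also induced by hypoxia, followed (probe set 15229543). STC1 had a log2 signal of 6.74, 6.95 and 7.12 in ND, 7.41, 7.46 and 7.40 in ND+EV, 7.18 and 7.31 in HFD, and 8.15, 8.53 and 7.67 in HFD+EV. The 3 ND+EV arrays lay close together, and HFD+EV replicates 1 and 2 were the highest of all arrays. For STC1 the shared effect was 0.68 ± 0.145 (95% interval 0.36 to 1.002, a fold of 1.60, limma adjusted p = 0.732). Of 20 measured genes of the hypoxia response, 6 were higher and 4 lower under both diets, against 21.5% and 24.2% of all 9738 genes. The median shared effect of the list was -0.02, or 0.05 without HFD replicate 1, and STC1 was the sole member higher at an unadjusted p under 0.05.

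Genes of metabolism and hormone handling were also among the 12. NAMPT, the rate-limiting enzyme of NAD salvage, was apart in both diets by more than 0.1. NAMPT had a log2 signal of 5.63, 5.55 and 5.56 in ND, 6.17, 5.87 and 6.17 in ND+EV, 5.69 and 5.56 in HFD, and 5.96, 5.82 and 5.84 in HFD+EV. For NAMPT the shared effect was 0.37 ± 0.0893 (95% interval 0.17 to 0.57, a fold of 1.29, limma adjusted p = 0.732). LEPROT is an endosomal protein that limits the leptin receptor at the cell surface. LEPROT had a log2 signal of 8.28, 8.27 and 8.03 in ND, 8.69, 8.41 and 8.65 in ND+EV, 8.03 and 8.18 in HFD, and 8.48, 8.41 and 8.62 in HFD+EV. Its difference was nearly the same under both diets (0.39 and 0.40). For LEPROT the shared effect was 0.40 ± 0.0949 (95% interval 0.19 to 0.61, a fold of 1.32, limma adjusted p = 0.732). ENPEP, the aminopeptidase that cleaves angiotensin II, had a shared effect of 0.49 (0.52 under ND and 0.46 under HFD), although HFD replicate 2 at 5.011 nearly reached HFD+EV replicate 1 at 5.016. FKBP5, a co-chaperone induced by glucocorticoids, had a shared effect of 0.46 ± 0.119 and was larger under HFD (0.60) than under ND (0.32), with a difference interval of -0.26 to 0.80.

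The last of the 12 higher genes were DEK and CBX3, which encode chromatin proteins, and CCDC125 and CYYR1. DEK, a chromatin-binding protein, was similar under both diets (0.32 and 0.36, shared effect 0.34). CBX3, a heterochromatin protein, was 0.77 higher under ND and 0.25 under HFD, where HFD replicate 1 (6.04) was just below HFD+EV replicate 1 (6.05). CCDC125 was 0.54 higher under each diet. CYYR1 was 0.87 higher under ND and 0.29 under HFD.

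**Figure D2:**
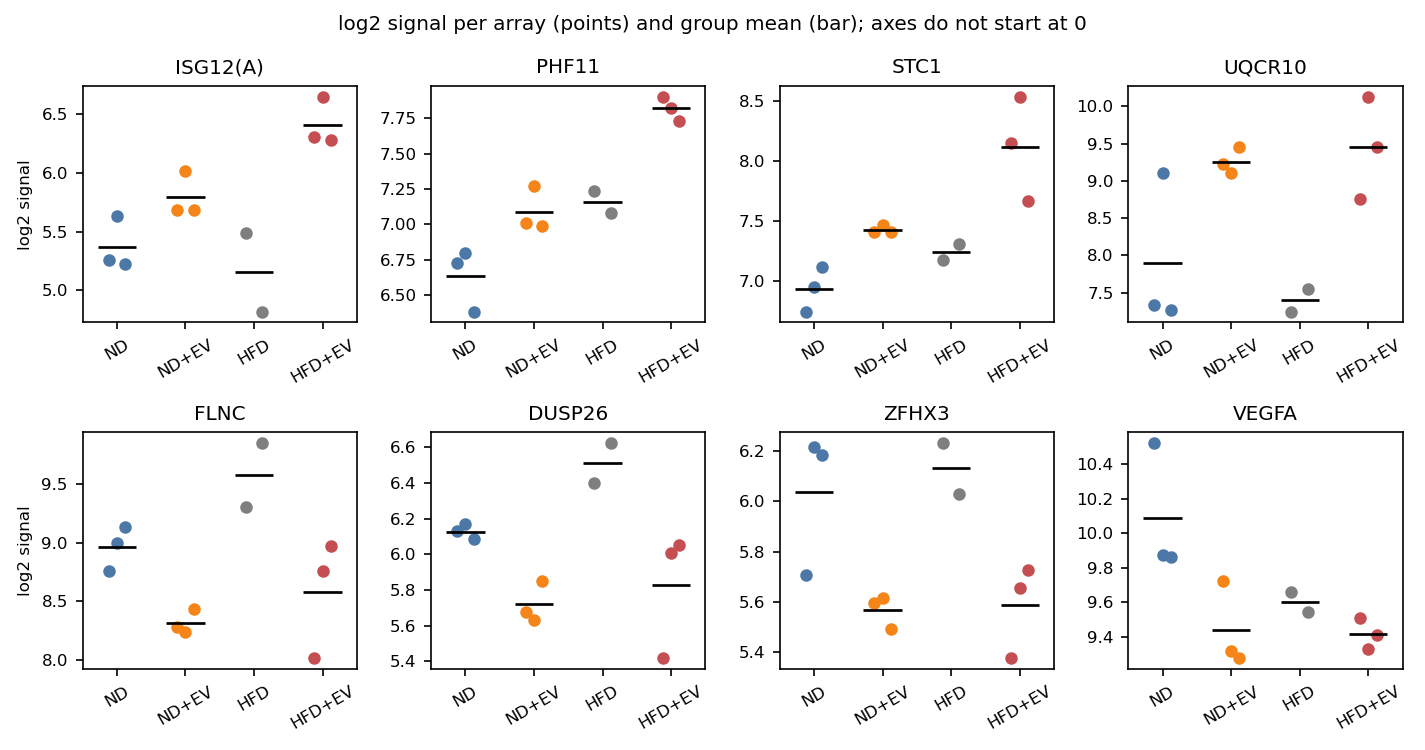
Log2 signal (y axis, not starting at 0) of 8 genes on each array (points) by group (x axis), with bars at the group means. UQCR10 shows ND replicate 2 at 9.102 among the EV arrays, FLNC and DUSP26 show EV arrays below the vehicle arrays of their diet, and ISG12(A) shows its larger gap under HFD.

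Of the 12 genes lower with EV and apart under both diets, FLNC had the largest shared effect. It encodes filamin C, an actin crosslinker of the muscle Z disc (probe set 15252526). FLNC had a log2 signal of 8.76, 8.995 and 9.14 in ND, 8.28, 8.24 and 8.44 in ND+EV, 9.30 and 9.85 in HFD, and 8.02, 8.76 and 8.97 in HFD+EV. All 3 ND+EV arrays were below 8.5, and the HFD arrays were the highest of all. HFD+EV replicate 3 lay within the range of ND, so the groups overlap when diet is set aside. For FLNC the shared effect was -0.82 ± 0.177 (95% interval -1.21 to -0.43, a fold of 1.76, limma adjusted p = 0.732). DUSP26, a phosphatase that acts on MAP kinases, showed the same order of groups. DUSP26 had a log2 signal of 6.13, 6.17 and 6.08 in ND, 5.68, 5.63 and 5.85 in ND+EV, 6.40 and 6.62 in HFD, and 5.42, 6.01 and 6.05 in HFD+EV. For DUSP26 the shared effect was -0.55 ± 0.125 (95% interval -0.82 to -0.27, a fold of 1.46, limma adjusted p = 0.732). HFD+EV replicate 1 was the lowest array of both genes.

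The regulators of signalling and transcription were lower by smaller amounts. MAP3K7, the kinase TAK1 of TGF-beta and NF-kappaB signalling, had the smallest SE of the 24. MAP3K7 had a log2 signal of 6.03, 6.06 and 6.02 in ND, 5.61, 5.86 and 5.70 in ND+EV, 6.30 and 6.34 in HFD, and 5.87, 6.01 and 5.96 in HFD+EV. The 3 ND arrays spanned 6.02 to 6.06 and both HFD arrays were near 6.3, each above every EV array of its diet. For MAP3K7 the shared effect was -0.34 ± 0.0801 (95% interval -0.52 to -0.17, a fold of 1.27, limma adjusted p = 0.732). ZFHX3, a zinc finger homeobox transcription factor linked to atrial rhythm, was similar under both diets (-0.47 and -0.54). ZFHX3 had a log2 signal of 5.71, 6.22 and 6.19 in ND, 5.60, 5.62 and 5.50 in ND+EV, 6.23 and 6.03 in HFD, and 5.38, 5.66 and 5.73 in HFD+EV. For ZFHX3 the shared effect was -0.51 ± 0.119 (95% interval -0.77 to -0.24, a fold of 1.42, limma adjusted p = 0.732). PPP6R1, a regulatory subunit of protein phosphatase 6, was -0.32 (-0.45 under ND and -0.20 under HFD).

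The remaining genes were HECW2, a ubiquitin ligase (-0.45), MICAL1, an enzyme that oxidises actin (-0.40, with both of its probe sets lower), TIAM2, an exchange factor for Rac (-0.35), RHOT2, a GTPase of the outer mitochondrial membrane (-0.34), C7H6orf47 (-0.45), RTKN (-0.34) and RUSC2 (-0.34). RUSC2 was apart under HFD by 0.0095, and C7H6orf47 was apart under ND by 0.0123.

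**Figure D3:**
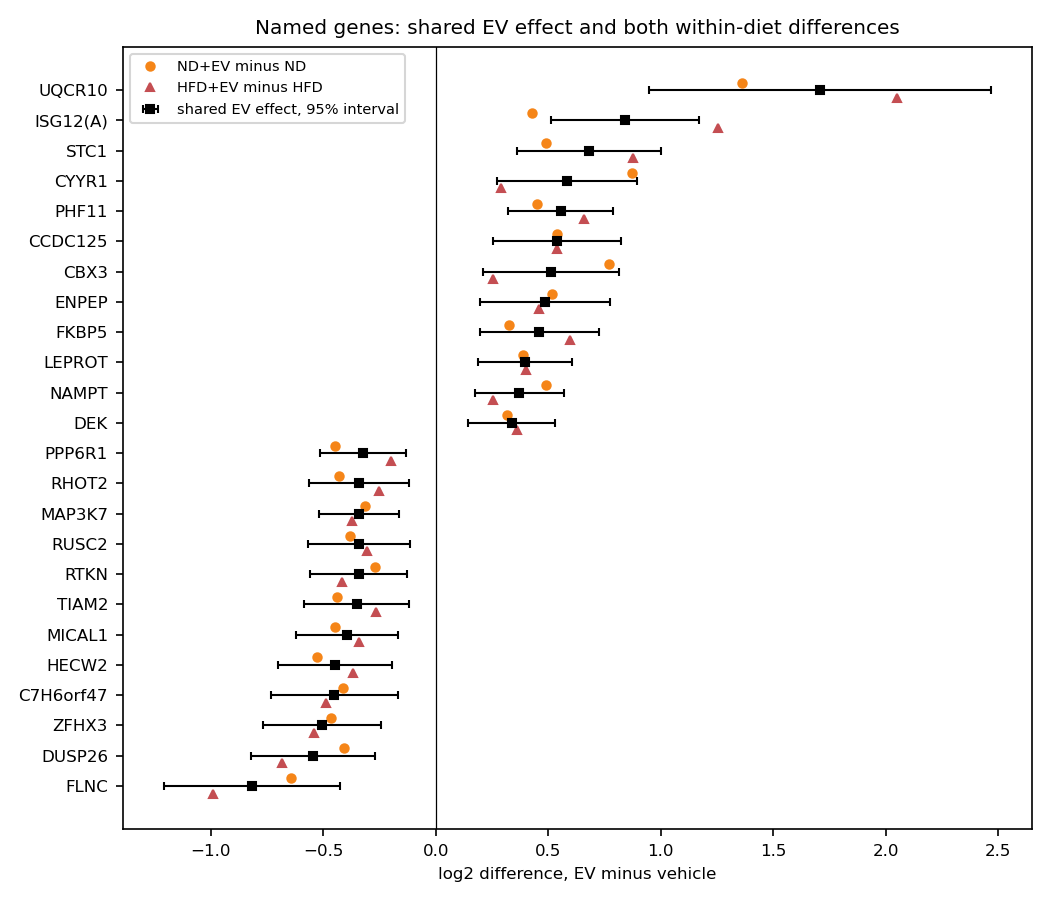
Shared EV effect (squares, with 95% intervals) and the differences ND+EV minus ND (circles) and HFD+EV minus HFD (triangles) in log2 units (x axis) for the 24 genes. Each interval excludes 0 before adjustment, which follows from picking these genes by smallest p. UQCR10 at 1.71 and FLNC at -0.82 are the ends of the range.

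The other 26 genes past that difference had shared folds from 1.27 to 1.63, of which 16 were higher and 10 lower (adjusted p from 0.855 to 0.913). Those higher included EFHD1, a calcium-binding protein of mitochondria (0.70), B2M, the light chain of MHC class I (0.45), AIF1, a macrophage protein (0.52), RDX, the membrane-cytoskeleton linker radixin (0.45), LMO4, a transcriptional cofactor (0.38), and CENPF, a centromere protein of dividing cells (0.34). Those lower included the glycolytic enzyme ENO1 (-0.60), CORO6, an actin-binding coronin (-0.52), TENM3, a transmembrane teneurin (-0.46), ADAMTS4, a protease of proteoglycans (-0.39), DIO3, the deiodinase that inactivates thyroid hormone (-0.38), and VEGFA. These were picked for their roles after the values were seen. Of 63 miRNA genes tested, 0 met the rule, and 3 had an unadjusted p under 0.05 in limma, as had 5.42% of all probe sets.

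Angiogenesis genes, the subject of the series, were on balance near 0. Of 23 measured, 7 were higher and 16 lower in the shared effect, 3 were higher and 9 lower under both diets, 1 was higher and 4 lower at an unadjusted p under 0.05, and 0 passed adjustment. Over all 9738 genes, 4779 had a shared effect above 0 (49.1%), 2096 were higher (21.5%) and 2355 lower (24.2%) under both diets, and 233 were higher (2.39%) and 287 lower (2.95%) at an unadjusted p under 0.05. The median shared effect of the list was -0.03, against -0.0037 over all genes. With 1 array left out it ranged from -0.10 (without ND replicate 1) to -0.02 (without ND+EV replicate 3).

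VEGFA, the main growth factor for endothelial cells, was apart under both diets and lower with EV (probe set 15310081). VEGFA had a log2 signal of 10.52, 9.87 and 9.86 in ND, 9.72, 9.32 and 9.28 in ND+EV, 9.66 and 9.55 in HFD, and 9.51, 9.33 and 9.41 in HFD+EV. ND replicate 1 was the highest array, and under HFD the lowest vehicle array exceeded the highest EV array by 0.04. For VEGFA the shared effect was -0.42 ± 0.142 (95% interval -0.73 to -0.10, a fold of 1.34, limma adjusted p = 0.855). It was -0.65 under ND and -0.19 under HFD, a difference of 0.46 (95% interval -0.17 to 1.09), and a second probe set of the gene also was lower. VEGFD, a ligand of the same family that acts on lymphatic and blood vessels, was the sole member higher at an unadjusted p under 0.05. VEGFD had a log2 signal of 6.12, 6.06 and 5.48 in ND, 6.44, 6.55 and 5.97 in ND+EV, 6.32 and 5.58 in HFD, and 6.42, 6.90 and 6.34 in HFD+EV. The groups overlapped under ND, and the shared effect of 0.52 ± 0.191 (adjusted p = 0.866) was 0.33 without HFD replicate 2. FLT4, a receptor of VEGFD, was -0.34 ± 0.133 (-0.36 under ND and -0.31 under HFD). The FLT4 signal was low, at 3.35 to 4.26 (probe sets with a mean under 3.63 were not tested), and the groups overlapped under both diets.

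In the FGF branch, FGF1 and the receptor FGFR1 were both lower. FGF1 had a log2 signal of 6.11, 6.37 and 6.22 in ND, 6.13, 5.96 and 6.20 in ND+EV, 6.40 and 6.71 in HFD, and 6.13, 6.12 and 6.14 in HFD+EV. Its shared effect was -0.28 ± 0.0944, larger under HFD (-0.42) than under ND (-0.14), and only the HFD groups did not overlap. FGFR1 was -0.32 ± 0.118, with -0.28 under ND and -0.37 under HFD, and also was apart under HFD alone. The receptors of VEGFA were closer to 0, at 0.02 for KDR and -0.02 for FLT1. The angiopoietin receptor TEK was at 0.08 and its ligands ANGPT1 and ANGPT2 at 0.07 and -0.12. Of 8 endothelial markers, 4 were higher and 4 lower (median -0.02), PECAM1 was at -0.06 ± 0.115 and VWF at -0.14 ± 0.135.

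Interferon-stimulated genes, which encode antiviral proteins induced through the STAT factors, had the largest median of 43 lists with at least 5 measured genes. All lists were chosen with earlier results of these data known, so this rank, the ranks below and the counts of members are a description. All 24 measured were higher in the shared effect, against 49.1% of all genes. Of these, 17 were higher and 0 lower under both diets, against 21.5% and 24.2% of all genes. At an unadjusted p under 0.05, 17 were higher, against 2.39% of all genes, and 0 passed adjustment. The median was 0.39, made up of 0.06 under ND and 0.67 under HFD. The list score (mean over the list of log2 signal minus the mean of each gene over all arrays) was -0.23, -0.21 and -0.29 in ND, -0.26, -0.06 and -0.15 in ND+EV, -0.19 and -0.16 in HFD, and 0.56, 0.55 and 0.42 in HFD+EV. The 3 HFD+EV arrays were far above all others, and ND+EV replicate 1 lay within the range of ND. Most of the shared median thus came from HFD, and the difference between the diets was not tested for the list. MX2, a GTPase that restricts viruses, was 0.93 in the shared effect with 0.10 under ND and 1.75 under HFD. MX2 had a log2 signal of 5.13, 5.37 and 5.78 in ND, 5.20, 6.28 and 5.10 in ND+EV, 5.16 and 5.21 in HFD, and 6.65, 7.22 and 6.94 in HFD+EV. Under ND the groups overlapped, and the diets differed by 1.65 (95% interval 0.67 to 2.62, adjusted p = 0.572). IFIH1, the RNA sensor MDA5, was 0.53 (0.24 under ND and 0.81 under HFD). ISG12(A) was the sole member apart under both diets, and PARP14 (0.29 and 0.86), USP18 (0.29 and 0.97) and IFIT3 (0.32 and 0.82) were higher under both. Under ND these genes lay above the list median of 0.06, and 7 of the 24 members had opposite signs in the diets.

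Antigen presentation genes were more even between the diets. Of 21 measured, 17 were higher, against 49.1% of all genes. Under both diets 13 were higher and 0 lower, against 21.5% and 24.2% of all genes. At an unadjusted p under 0.05, 4 were higher, against 2.39% of all genes, and 0 passed adjustment. The median was 0.17, with 0.15 under ND and 0.18 under HFD, and it was 0.11 without ND replicate 1, 0.10 without HFD replicate 1 and 0.04 without ND replicates 1 and 3. The list score was -0.57, -0.01 and -0.11 in ND, -0.11, -0.05 and -0.03 in ND+EV, -0.06 and 0.21 in HFD, and 0.16, 0.21 and 0.35 in HFD+EV. ND replicate 1 was the lowest array, and the groups overlapped under each diet. B2M had a log2 signal of 8.33, 9.44 and 9.41 in ND, 9.69, 9.75 and 9.51 in ND+EV, 9.32 and 9.31 in HFD, and 9.64, 9.69 and 9.51 in HFD+EV. B2M was apart under both diets, and its shared effect of 0.45 ± 0.187 was 0.26 without ND replicate 1. SLA-3, a classical MHC class I chain of the pig, was 0.39 ± 0.164 (0.37 under ND and 0.42 under HFD, adjusted p = 0.913). CTSS, a protease that prepares MHC class II, was 0.29 ± 0.126 but 0.14 without HFD replicate 1. SLA-DMB, which helps load peptides on MHC class II, was 0.40 ± 0.174. Probe sets of pig MHC genes can share sequence, so signal may be split between copies.

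Macrophage and monocyte markers were measured beside these genes. Of 11, 7 were higher and 4 lower. Under both diets 6 were higher and 1 lower, against 21.5% and 24.2% of all genes. At an unadjusted p under 0.05, 2 were higher, against 2.39% of all genes, and 0 passed adjustment. The median was 0.24 (0.31 under ND and 0.09 under HFD) and 0.12 without ND replicate 1 or 0.15 without ND+EV replicate 2. The list score was -0.61, -0.15 and -0.06 in ND, -0.16, 0.27 and 0.09 in ND+EV, -0.04 and 0.22 in HFD, and -0.12, 0.28 and 0.28 in HFD+EV. The lowest array was again ND replicate 1. AIF1 was apart under both diets. AIF1 had a log2 signal of 4.69, 4.69 and 4.09 in ND, 4.88, 5.23 and 4.87 in ND+EV, 4.29 and 4.59 in HFD, and 5.21, 5.08 and 4.61 in HFD+EV. For AIF1 the shared effect was 0.52 ± 0.158 (95% interval 0.17 to 0.87, a fold of 1.43, limma adjusted p = 0.855). MRC1, the mannose receptor, was 0.42 (0.59 and 0.26), and the complement subunit C1QB was 0.74 but 0.46 without ND replicate 1. CD14 (-0.07), CSF1R (-0.07), ITGAM (-0.01) and TYROBP (-0.13) were not higher. The part of these markers in the antigen presentation values was not tested.

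**Figure D4:**
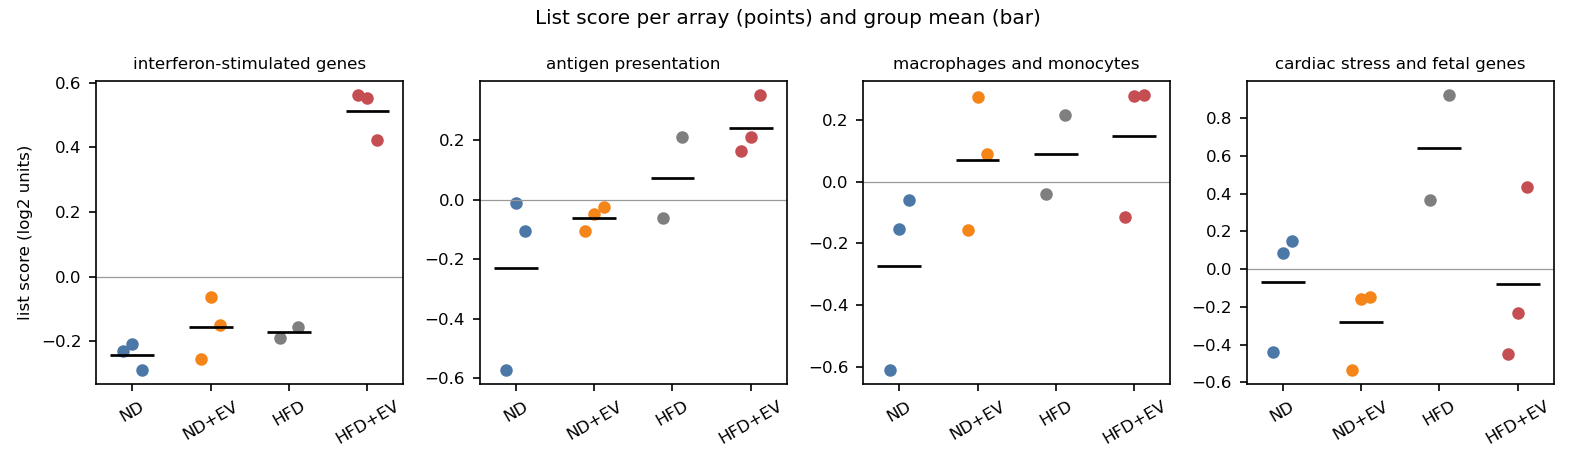
List score per array (points, in log2 units around each gene's own mean, averaged over the list) by group, with bars at group means. Interferon-stimulated genes are high on the 3 HFD+EV arrays (0.42 to 0.56), ND replicate 1 is the lowest array for antigen presentation (-0.57) and macrophage markers (-0.61), and cardiac stress genes are highest on HFD replicate 2 (0.92).

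Cardiac stress and fetal genes, which are re-expressed or induced in strained heart muscle, had the lowest median of the lists. Of 14 measured, 12 were lower and 2 higher. Under both diets 7 were lower and 1 higher, against 24.2% and 21.5% of all genes. At an unadjusted p under 0.05, 5 were lower, against 2.95% of all genes, and 0 passed adjustment. The median was -0.32, with -0.05 under ND and -0.67 under HFD. The list score was -0.44, 0.09 and 0.15 in ND, -0.54, -0.16 and -0.15 in ND+EV, 0.37 and 0.92 in HFD, and -0.45, -0.23 and 0.44 in HFD+EV. HFD replicate 2 was the highest array, and HFD+EV replicate 3 was within the range of HFD. Without HFD+EV replicate 3 the median was -0.50. XIRP2, an actin-binding repeat protein of the intercalated disc and Z disc, had the largest difference in the list. XIRP2 had a log2 signal of 7.08, 7.11 and 6.14 in ND, 6.30, 5.37 and 5.77 in ND+EV, 7.80 and 8.72 in HFD, and 5.30, 6.48 and 7.17 in HFD+EV. ND replicate 3 was below ND+EV replicate 1, and the HFD groups were apart. For XIRP2 the shared effect was -1.45 ± 0.347 (95% interval -2.22 to -0.68, a fold of 2.74, limma adjusted p = 0.732). It was -0.96 under ND and -1.94 under HFD. XIRP1, of the same family, was -0.74 ± 0.244 (-0.64 and -0.84), and FHL1, a LIM protein that senses strain, was -0.47 ± 0.171 (-0.66 and -0.29). NPPA, which encodes atrial natriuretic peptide, was -1.08 ± 0.439 and -0.55 without HFD replicate 2, whose signal of 9.27 was the highest. FLNC, described above, also belongs to this list.

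Cell type lists that contain related genes were set beside it. Smooth muscle and pericyte markers were lower in 8 of 9. Under both diets 5 were lower and 1 higher, against 24.2% and 21.5% of all genes. With 0 at an unadjusted p under 0.05, they had a median of -0.17 (-0.26 under ND and -0.13 under HFD). That median was -0.09 without HFD+EV replicate 1, -0.10 without HFD replicate 2 and -0.12 without ND replicate 2. TAGLN (-0.28, or -0.18 without HFD replicate 2) and CNN1 (-0.58, or -0.26 without HFD replicate 2 and -0.91 without HFD replicate 1), both actin-binding proteins of smooth muscle, were lower, as was the pericyte receptor PDGFRB (-0.21). Of 7 atrial muscle markers 3 were higher and 4 lower, with 2 lower and 0 higher under both diets and a median of -0.14. At an unadjusted p under 0.05, 1 of them (NPPA) was lower, against 2.95% of all genes. The atrial median was -0.24 without ND replicate 2, -0.03 without ND replicate 3, -0.07 without ND+EV replicate 1, -0.05 without HFD replicate 1 and -0.06 without HFD replicate 2. SLN had a log2 signal of 3.18, 3.46 and 3.77 in ND, 3.77, 3.66 and 3.57 in ND+EV, 3.77 and 6.73 in HFD, and 3.94, 3.77 and 3.73 in HFD+EV. This is SLN, the regulator of the calcium pump known as sarcolipin, which was between 3.18 and 3.94 on every array except HFD replicate 2. Its shared effect of -0.62 ± 0.409 was 0.12 without HFD replicate 2 and -1.36 without HFD replicate 1 (adjusted p = 0.0499). MYL4, an atrial myosin light chain, was -0.16 ± 0.168, or -0.04 without ND replicate 3 and -0.27 without HFD replicate 1. Cardiomyocyte markers were level, with 3 of 7 higher and a median of -0.02. The part of tissue makeup in the stress gene values was not tested.

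Other lists with large medians drew them from 1 diet. Nuclear-encoded respiratory chain genes were higher in 30 of 34, against 49.1% of all genes. Yet only 5 were higher and 0 lower under both diets, against 21.5% and 24.2% of all genes. Their median was 0.68 under ND and -0.16 under HFD. Their shared median of 0.27 was 0.15 without ND replicate 1 and 0.04 without ND replicates 1 and 3. NDUFV2 of complex I (0.37) was 0.70 under ND and 0.04 under HFD, COX7C of complex IV (0.27) was 0.46 and 0.09, and NDUFC2 (0.74) was 1.67 and -0.18. UQCR10, of the same chain, was 1.36 and 2.05. Cytosolic ribosomal protein genes were higher in 28 of 31 with 4 higher under both diets, and the shared median of 0.16 (0.45 under ND and -0.21 under HFD) was -0.0066 without ND replicate 1, 0.28 without ND replicate 2 and 0.10 without replicate 2 of ND+EV or of HFD+EV. RPL32 was 0.37 (0.74 and -0.0011), RPL38 0.56 (1.03 and 0.10, or a shared effect of 0.27 without ND replicate 1) and RPS3 0.20 (0.40 and -0.01).

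While 49.1% of all genes were higher, 5 of 19 heat shock genes and 3 of 20 unfolded protein response genes were. Both lists were lower mainly under HFD. Their medians were -0.15 in each, from 0.10 under ND and -0.28 under HFD and from 0.01 and -0.31. Without HFD replicate 2 these medians were -0.03 and -0.02, and without HFD+EV replicate 1 both were -0.08. The second was also -0.09 without ND replicate 2. BAG3 (-0.25, or -0.14 without HFD replicate 2), DNAJB1 (-0.23) and HSPB1 (-0.43, or -0.28 without ND replicate 3), which assist protein folding, had the smallest p of the heat shock list. ERN1, the stress sensor of the endoplasmic reticulum, was apart and lower under both diets (-0.25 under ND and -0.23 under HFD). ERN1 had a log2 signal of 5.98, 5.87 and 5.97 in ND, 5.57, 5.86 and 5.63 in ND+EV, 5.88 and 5.84 in HFD, and 5.58, 5.54 and 5.77 in HFD+EV. HSPA5 (-0.29) and PDIA6 (-0.22, or -0.14 without HFD replicate 2), which fold proteins in that compartment, followed.

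**Figure D5:**
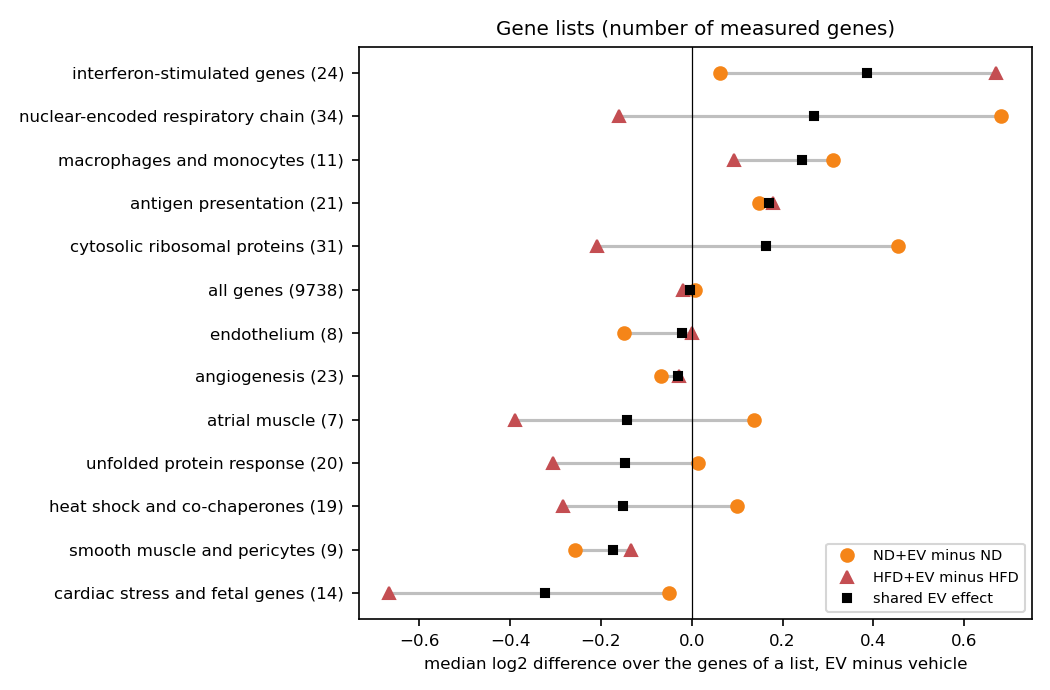
Median log2 difference between EV and vehicle over the genes of a list (x axis) for the 10 lists with the largest shared medians, for angiogenesis, endothelium and all genes, under ND (circles), under HFD (triangles) and shared (squares). Respiratory chain and ribosomal protein genes have circles and triangles on opposite sides of 0, while antigen presentation (0.15 and 0.18) lies on 1 side.

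Across the 43 lists, 15 had medians of the same sign under both diets, 7 above and 8 below 0. A further list with several members at an unadjusted p under 0.05 was insulin, PI3K-AKT and mTOR signalling, in which 15 of 17 genes were lower. Under both diets 6 were lower and 1 higher, against 24.2% and 21.5% of all genes. Of the 17, 4 were lower at that p, against 2.95% of all genes. The list had a median of -0.09, with 0.01 under ND and -0.23 under HFD. The median was -0.05 without HFD+EV replicate 1, -0.06 without ND replicate 3 and -0.03 with array weights. These 4 were the insulin receptor INSR (-0.29 ± 0.0947, with -0.25 under ND and -0.32 under HFD), its relative IGF1R (-0.34 ± 0.117, with -0.60 and -0.08) and the growth inhibitors TSC2 (-0.24 ± 0.0923, with -0.23 and -0.25) and TSC1 (-0.20 ± 0.0891, with -0.17 and -0.23). None of the 4 passed adjustment over all probe sets (adjusted p from 0.855 to 0.913, limma).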

How the data were processed

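The authors deposited normalized log2 signal for 27558 probe sets of an Affymetrix whole-transcript pig array on 11 arrays, made from 50 ng of total RNA per the labels' protocols. Transcriptome Analysis Console, with no version, is named in the submitters' processing notes. How the signal was normalized, and with which annotation version and genome build, is not given in the sources used here. Probe sets in the lowest 25% by mean signal (under 3.63) were not tested.

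A linear model with 1 mean per group was fitted over all 11 arrays with limma 3.58.1 in R 4.3.3 (7 residual and 3.62 prior degrees of freedom), two-sided, with Benjamini-Hochberg adjustment over 20668 probe sets. In the platform annotation 13157 of the deposited probe sets have 1 symbol, 523 have several and 13878 have none, and only the first were named. In 645 genes over 1 probe set was tested. Of the probe sets tested, 803 shared all values with another.

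Named genes were up to 12 higher and 12 lower past an adjusted p of 0.05 at a log2 difference of 0.32. Open places were filled by smallest p among genes apart under both diets. Added were 3 members of each of the 10 lists of at least 5 measured genes with the largest absolute medians, 5 angiogenesis genes and any miRNA gene meeting the rule. The members and the 52 gene lists (9 had too few measured genes) were chosen with earlier results of these data known. On simulated data with 200 changed among 20668 probe sets, the shared effect was recovered for 59.7% of probe sets changed 1.5-fold, 88.1% of those changed 2-fold and 98.5% of those changed 4-fold, with 15 false calls. The simulated noise was drawn independently for each probe set on each array, with no diet effect. On the real arrays ND replicates 1 and 3 stood apart, so recovery there may be lower and was not estimated. Alternatives covered the filter, normalization, variance model, array weights, each array left out, a replicate block and the diet term.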

Additional observations from a re-analysis of the deposited data

Results flagged for a closer look

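In 114 sets of vehicle or EV arrays examined over both diets, 6 held 1 array whose gap to the others exceeded Dixon's 95% value, which chance gives in about 1 of 20 sets. UQCR10 was at 9.102 on ND replicate 2, against 7.245 to 7.550 on the other vehicle arrays. B2M was at 8.325 on ND replicate 1, against 9.305 to 9.442. NPPA was at 9.270 on HFD replicate 2 (6.350 to 7.150 on the other vehicle arrays), as was SLN at 6.729 (3.175 to 3.770). Among EV arrays, ND+EV replicate 2 was at 6.049 for RPL32 (5.364 to 5.544 on the others) and at 5.956 for FGF1 (6.121 to 6.200).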

How the results depend on the processing

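The number of arrays limits every value. The count for the shared EV effect was 0 under every alternative run, except without HFD replicate 1 (range 0 to 1 over single arrays left out), where SLN was -1.36 (adjusted p = 0.0499) and was also the 1 gene of those named whose EV effects differed between the diets (-3.11, adjusted p = 0.0152; range 0 to 1). There HFD had 1 array, assumed to vary like the other groups. SLN reversed to 0.12 without HFD replicate 2. No other of 1308 gene values recomputed for 57 genes reversed or passed. The count apart under both diets was 205, or 273 to 516 with 1 array left out, since fewer arrays separate more easily. It was 847 without both ND replicate 1 and HFD+EV replicate 1, an alternative chosen after seeing the data. Normalization by cyclic loess gave 249 (139 of the 205 kept) and by quantiles 258 (148 kept). With the replicate number as a block, 0 probe sets passed (smallest adjusted p = 0.362, 1514 against 1120 at an unadjusted p under 0.05). Deviations of arrays with the same number correlated at 0.0782, 0.199 and 0.103 under ND and 0.0245 and -0.103 under HFD. A correlation of 0.1 was set to mark pairing, and replicates 2 and 3 under ND exceeded it. Arrays with different numbers ranged from -0.182 to 0.0521 under ND. Under HFD such arrays exceeded the mark too, as HFD replicate 2 and HFD+EV replicate 3 did (0.133). With 2 vehicle arrays, the HFD deviations mirror each other, so the HFD correlations are not separate values. Across the diets, ND replicate 2 and HFD+EV replicate 3 were at 0.194. Across the diets, same-number arrays ranged from -0.00885 (ND+EV and HFD+EV replicate 3) to 0.335 (ND and HFD+EV replicate 1). The numbers were not used in the main model, and a link between arrays by number was not tested further. Of 987 list medians recomputed, 6 moved by more than 1 SD of the list score. This is a wide limit, since a median could change sign without being counted. That of cytosolic ribosomal proteins (0.163, with an SD of 0.332) did so without ND replicate 1 (-0.0066). Many lists with smaller medians also changed sign under at least 1 alternative. Fatty acid oxidation (0.12 to -0.04) and proteasome (0.12 to -0.0094) did so without ND replicates 1 and 3. The median of mRNA splicing and processing went from 0.09 to -0.03 without ND replicate 3.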

Other observations

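Lists outside the 10 described above held smaller differences. Fatty acid oxidation genes were higher in 14 of 18, against 49.1% of all genes. Under both diets 9 were higher and 2 lower, against 21.5% and 24.2% of all genes. At an unadjusted p under 0.05, 2 were higher, against 2.39% of all genes. The fatty acid oxidation median was 0.12 (0.25 under ND and 0.01 under HFD), but -0.04 without ND replicates 1 and 3. ACSL1, which activates long-chain fatty acids, was 0.28 (0.16 under ND and 0.40 under HFD), and SLC25A20, the mitochondrial acylcarnitine carrier, was 0.31 but 0.60 and 0.03 in the diets. HADHA, a subunit of the mitochondrial trifunctional protein, was 0.27 under each diet. Collagen and matrix genes were higher in 8 of 31, with 3 higher and 10 lower under both diets. At an unadjusted p under 0.05, 2 were lower, against 2.95% of all genes. The median of the matrix list was -0.11 (0.05 under ND and -0.23 under HFD). That median turned to 0.03 when HFD replicate 2 was left out, and leaving out any other single array gave -0.19 to -0.03. VCAN, the proteoglycan versican, was -0.67 (-0.24 and -1.10), with HFD replicate 2 at 7.82 above all other arrays (5.73 to 6.72). COL4A1, a basement membrane collagen, was apart and lower under both diets (-0.33 and -0.15), as was HK2, a hexokinase of glycolysis (-0.16 and -0.47), each below the log2 difference of 0.32 used for naming.

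Of the 13 probe sets at a shared fold of 2 or more, 7 were higher and 6 lower, 6 carried 1 symbol, and 2 were apart under both diets. These 2 were UQCR10 and probe set 15260987, which has no single symbol and was 1.63 higher (1.78 under ND and 1.48 under HFD). RNF115, a ubiquitin ligase, was 1.09 higher (1.22 and 0.96), and its ND+EV arrays were above 7.7 against at most 7.58 in ND. UBAP1, of the endosomal sorting complex, was -1.85 (-0.78 and -2.91), with signals from 2.84 to 6.32 over the arrays. NPPB, which encodes B-type natriuretic peptide, was -1.18 ± 0.852 (-0.30 and -2.07). Among the 40 probe sets with the smallest p, 13 carried 1 symbol, 21 were apart under both diets, 25 were higher and 15 lower. Over all probe sets 0.992% were apart in this way. Separation and a small p rest on the same values, so the 21 are no separate evidence that the diets agree. Of the 205 probe sets apart under both diets, 95 had no symbol or several and are not described.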
